A study of Drosophila melanogaster with 16 samples.

Results

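The Polycomb group genes named for this comparison are Pc, ph-p, ph-d, Psc, Su(z)2, Sce, Scm, E(z), esc and Su(z)12, 10 genes in all. A gene entered if a probe set of the arrays carried exactly its symbol in the platform's gene table. This gave 7 genes with 1 probe set each, among 10826 genes with a probe set. ph-p, ph-d and Su(z)2 had no probe set under their symbol and were not analysed here. All 7 probe sets passed the filter on low signals, which asked for a signal above 42.9 on at least 5 of the 16 arrays.

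Polycomb group proteins keep genes silent through cell division, and they do so in 2 main complexes. Polycomb repressive complex 2 (PRC2) methylates a lysine in the tail of histone H3, and Polycomb repressive complex 1 (PRC1) includes a subunit that reads this mark and one that ubiquitylates histone H2A. In the fly testis Polycomb is known to hold back the genes of terminal sperm differentiation, and testis-specific TAFs, relatives of general transcription factor subunits, counteract it in spermatocytes.

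RNA of whole adult Drosophila melanogaster testes was measured on single-colour oligonucleotide arrays in 3 genotypes, on 16 arrays: wild-type and bgcn testes have 5 each and Os+bgcn testes 6. Both mutant groups are labelled bgcn-, and the second carries Os in addition. The product of bgcn is needed, together with that of bam, for spermatogonia to leave their mitotic divisions, and without it germ cells go on proliferating in place of entering the spermatocyte stage. Os stands for outstretched, now called upd1, which encodes a JAK-STAT pathway ligand secreted by the hub of the stem cell niche. The allele of bgcn, the way in which Os was supplied and the age of the flies are not given in the sources used here, and each sample pooled many testes. A bgcn sample was made from 750 testes and any other from 150, so for a difference particular to bgcn the genotype and the number of testes cannot be told apart.

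The upd1 probe set gave signals of 254.7 to 636.7 on Os+bgcn arrays, 3.8 to 15.3 on bgcn arrays and 5.1 to 18.5 on wild-type arrays. The bgcn probe set gave 47.6 to 102.2 in bgcn, 42.0 to 130.1 in Os+bgcn and 61.3 to 141.5 in wild type, and whether it lies in the mutated part of the gene was not analysed here. One label field of the wild-type samples, on extraction, names bgcn testes. The signal summed over 25 spermatid differentiation genes, however, lay between 185000 and 207400 for wild type, against 814.1 to 1849 for bgcn and 1031 to 1572 for Os+bgcn. Within the bgcn group arrays 1 and 2 held the highest summed accessory gland signals, 27529 and 21291 against 4942 to 13209 on the other 3, and results are also given without them. The labels call the replicates biological but name no separate crosses, so p-values measure the spread between these samples, and the number of arrays limits the precision.

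Among the PRC1 genes, Sce and Scm had higher signals on every mutant array than on any wild-type array. Sce, the RING finger ubiquitin ligase of the complex (chromosome arm 3R), had signals of 55.5, 46.6, 40.2, 20.3 and 74.2 on wild-type arrays 1 to 5. On the bgcn arrays Sce read 133.3, 118.2, 133.3, 95.2 and 122.9, and the 6 Os+bgcn arrays ran from 164.1 to 183.8 with a median of 174.9. The 3 groups of Sce did not overlap, and their order was wild type, bgcn and Os+bgcn. Scm, a sterile alpha motif protein that associates with PRC1 (arm 3R), had signals of 19.7, 17.4, 23.7, 30.6 and 14.7 in wild type. It read 129.8, 109.5, 89.9, 71.4 and 62.8 in bgcn, and 84.5 to 112.4 with a median of 103.5 in Os+bgcn. No wild-type array reached any mutant array for Scm, whereas the Os+bgcn arrays lay inside the range of the bgcn arrays.

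Pc, the chromodomain subunit that binds the mark written by PRC2 (arm 3L), was near the low end of the scale. Its signals were 16.3, 19.4, 19.0, 13.2 and 16.1 in wild type and 46.4, 18.4, 76.1, 35.4 and 96.6 in bgcn. In Os+bgcn Pc ranged from 29.1 to 96.9 with a median of 41.6. Pc was the least reproducible of the 7 genes between mutant arrays on the log2 scale, with a standard deviation of 0.65 in bgcn and 0.56 in Os+bgcn against 0.10 in wild type. It exceeded the filter level on 3 of 5 bgcn arrays and 3 of 6 Os+bgcn arrays, and bgcn array 2 lay within the wild-type range.

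Psc, a RING finger partner of Sce that compacts chromatin (arm 2R), differed from the others in where it was detected. Its signals were 2.9, 4.8, 13.0, 8.4 and 5.2 in wild type and 18.3, 26.1, 7.7, 9.7 and 18.9 in bgcn. In Os+bgcn the lowest was 39.3, the median 81.8 and the highest 134.8. Every Os+bgcn array was above every bgcn array, while bgcn and wild-type arrays overlapped and none of them reached the filter level. Psc therefore passed the filter through Os+bgcn alone, on the 5 arrays required, so that entering the test already required a high value there.

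The 3 PRC2 genes were lower on every wild-type array than on any mutant array. E(z), the histone methyltransferase (arm 3L), had signals of 94.4, 104.9, 78.3, 155.2 and 87.3 in wild type and 311.5, 278.0, 332.8, 322.6 and 308.5 in bgcn. In Os+bgcn E(z) ranged from 369.1 to 439.5 with a median of 417.5, again without overlap among the 3 groups. E(z) was the only one of the 7 above the filter level on all wild-type arrays, and Sce was above it on 3 of them. In mutant testes E(z) had among the smallest spreads between arrays, with standard deviations of 0.09 in bgcn and 0.08 in Os+bgcn on the log2 scale.

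esc, the WD40 subunit that binds the methylated histone tail and stimulates E(z) (arm 2L), had wild-type signals of 16.7, 11, 5.2, 10.1 and 7.6. It read 152.5, 215.5, 283.6, 267.6 and 277.8 in bgcn, and 283.6 to 350.7 with a median of 340.5 in Os+bgcn. The highest bgcn array of esc equalled the lowest Os+bgcn array. Su(z)12, the zinc finger subunit that holds the complex together (arm 3L), had signals of 5.0, 25.8, 15.0, 15.3 and 42.5 in wild type. It read 343.3, 218.0, 201.4, 248.8 and 156.8 in bgcn, and 210.2 to 281.7 with a median of 258.1 in Os+bgcn. The Os+bgcn arrays lay inside the range of bgcn, and no mutant array reached down to wild type. esc, Su(z)12, Scm and Pc passed the filter through the mutant arrays alone.

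**Figure D1:**
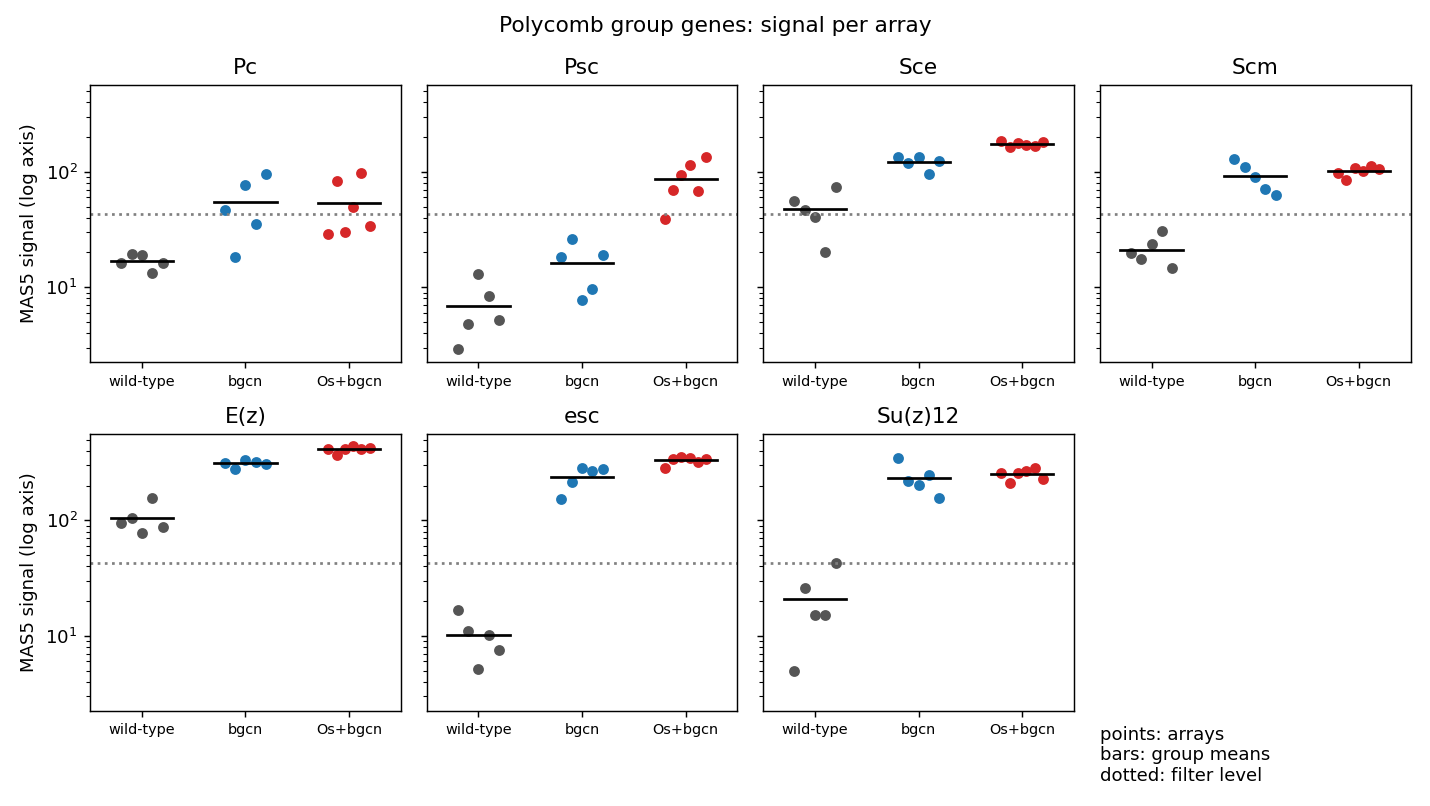
MAS5 signal of each Polycomb group gene on a log axis, with 1 point per array, a bar at each group mean and a dotted line at the filter level of 42.9. Wild-type arrays lie lowest in mean for all 7 genes, and Psc is the gene whose bgcn arrays all stay under the line while 5 of 6 Os+bgcn arrays are above it.

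The comparison of bgcn with wild-type testes sets a tissue of dividing early germ cells against one that also holds spermatocytes and spermatids. In whole testes, fewer cells of a type and less RNA per cell cannot be told apart. Of the 7 genes 6 rose in bgcn and none fell, on the log2(signal + 18.8) scale and by limma at an adjusted p under 0.05, where 69.8% of the 10422 probe sets tested passed, 47.2% as higher and 22.6% as lower. In 5 of the 7 the arrays did not overlap, as in 54.5% of all probe sets, of which 35.3% were higher and 19.3% lower, each as a share of all tested. These counts are a description, since several genes entered the test through the mutant arrays. The median difference of the 7 was 1.45, and that of all probe sets tested was 0.46.

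esc had the largest difference of bgcn from wild type among the 7, at 3.14 ± 0.17 (SE, n = 5 and 5; limma adjusted p = 1.9e-12), and 100 of the probe sets tested had a larger one. Its signal went from 10.1 ± 4.32 (SD) in wild type to 239 ± 55.6 in bgcn. Su(z)12 followed at 2.71 ± 0.22 (limma adjusted p = 1.4e-09), with 271 probe sets above it. E(z) rose by 1.45 ± 0.14 (limma adjusted p = 1.4e-08), from 104.0 ± 30.2 to 311 ± 20.6 in signal. By difference the 3 PRC2 genes stood higher than 79.2 to 99.0% of all probe sets, and Scm, Sce, Pc and Psc higher than 79.3, 70.7, 65.3 and 49.1%. Of the 7, Pc, Psc, Scm, esc and Su(z)12 were above the filter level on mutant arrays alone. A high value there was thus required for their test, and their places and calls are a description.

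On the PRC1 side Scm rose by 1.46 ± 0.19 (limma adjusted p = 9.6e-07) and Sce by 1.12 ± 0.19 (limma adjusted p = 2.8e-05). Pc rose by 0.93 ± 0.30 (limma adjusted p = 0.0090), with overlapping arrays. With arrays centred on their medians its difference was 0.69 and its adjusted p 0.053. Psc differed by 0.43 ± 0.24 and did not pass (limma adjusted p = 0.12), and this difference is close to the median of all probe sets. With a pseudocount of 1 instead of 18.8 it was 1.14 and passed (adjusted p = 0.026), at signals that no bgcn or wild-type array had above the filter level.

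The scale on which these differences are read depends on the genes held constant. Centring each array on 16 cytosolic ribosomal protein genes, which rose in bgcn by a median of 2.18, moved the median of all probe sets from 0.46 to -1.80. The share of calls that were higher went from 67.6 to 1.89%. On that scale only esc passed as higher (0.88), and Su(z)12 was at 0.44 without passing. Pc, Psc, Sce, Scm and E(z) turned to -1.33, -1.83, -1.14, -0.81 and -0.81, and these 5 passed as lower. Each of the 7 shifted with all probe sets together, so that relative to their median Psc stayed the lowest and esc the highest.

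The comparison of Os+bgcn with wild-type testes shares the wild-type arrays with the one above and is given side by side with it. All 7 genes rose, with arrays apart in all 7, where 71.4% of probe sets passed (47.3% higher and 24.2% lower) and 58% had arrays apart (37.9% higher and 20.1% lower). These counts are again a description, since Pc, Psc, Scm, esc and Su(z)12 were above the filter level on mutant arrays alone. The median of the 7 was 1.84 and that of all probe sets 0.43. esc differed by 3.60 ± 0.16 (n = 6 and 5; limma adjusted p = 9.2e-14), Su(z)12 by 2.84 ± 0.22 (2.8e-10) and E(z) by 1.84 ± 0.13 (1.6e-10). Psc differed by 1.98 ± 0.23 (limma adjusted p = 1.9e-07), Sce by 1.60 ± 0.18 (1.4e-07) and Scm by 1.60 ± 0.18 (1.2e-07). Pc differed by 0.94 ± 0.29 (limma adjusted p = 0.0062), and it did not pass with median centring (adjusted p = 0.0501) or with the accessory gland level of each array as a covariate (adjusted p = 0.056). That level, each array's median log2 value, was 5.16 to 7.69 in Os+bgcn and 7.97 to 9.65 in wild type, so this fit can hardly separate it from the genotype. With ribosomal centring the median of all probe sets was -1.53 and 6.51% of calls were higher in place of 66.1%. On that scale Pc, Sce, Scm and E(z) turned to -1.02, -0.36, -0.36 and -0.12, and Psc, at 0.03, no longer passed. Of the 7 genes 2 then passed as higher and 1 as lower.

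**Figure D2:**
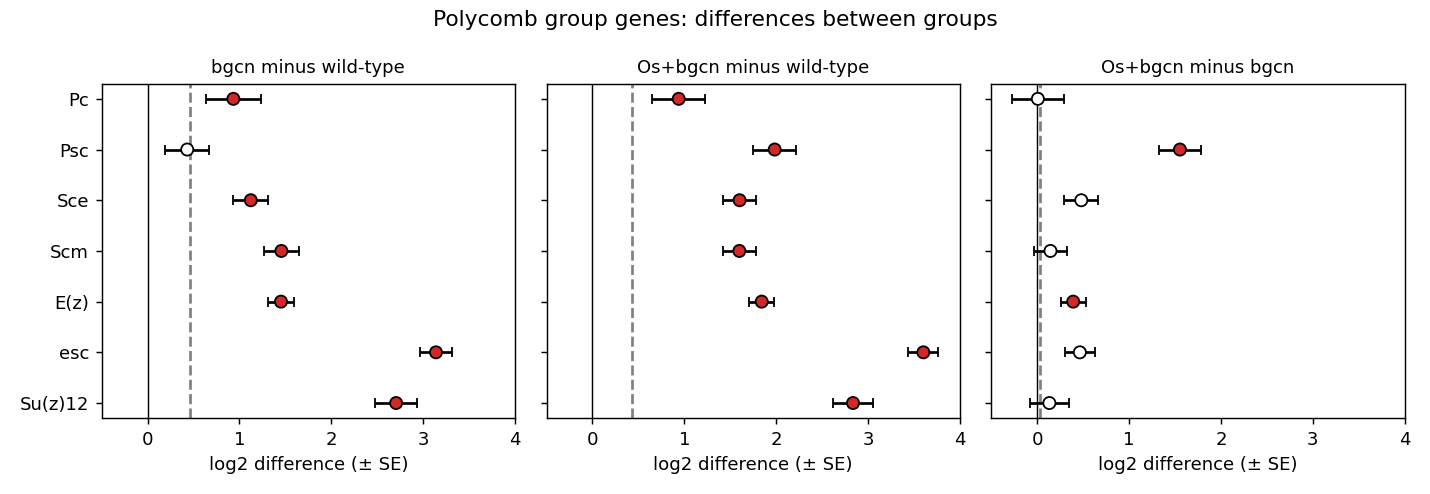
Log2 difference of each Polycomb group gene in the 3 comparisons, with standard errors as bars, filled points for an adjusted p under 0.05 and a dashed line at the median of all tested probe sets. Every point lies above 0 on the deposited scaling, esc is highest against wild type at 3.14 and 3.60, and between both mutants Psc stands apart at 1.55. With ribosomal centring 5 of the points against wild type turn below 0 in bgcn and 4 in Os+bgcn. Of these, 5 passed as lower in bgcn and 1 in Os+bgcn.

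The comparison of Os+bgcn with bgcn sets testes that carry Os against those that do not, both labelled bgcn-. Psc rose by 1.55 ± 0.23 (SE, n = 6 and 5; limma adjusted p = 7.9e-05), from a signal of 16.1 ± 7.49 (SD) to 86.8 ± 34.9. Only 82 of the 10422 probe sets had a larger difference. Psc kept its direction and its call under all 28 alternatives that included it, with a difference of 1.10 to 2.37 and an adjusted p of 1.31e-05 to 0.0199. Psc passed the filter through Os+bgcn alone, as above, so a high value there was required for its test. Its place, direction and call are therefore a description. Whether its change differed from that of the other 6 genes was not tested.

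E(z) also passed, at 0.39 ± 0.13 (limma adjusted p = 0.046), with signals of 413 ± 23.5 against 311 ± 20.6 and no overlap between arrays. This call ended under 21 of 29 alternatives, while the difference stayed between 0.34 and 0.70. Among them were leaving out any single bgcn array (adjusted p = 0.055 to 0.108) and any single Os+bgcn array other than array 2 (adjusted p = 0.069 to 0.084). Leaving out wild-type array 1 or 2, which enters only through the shared spread, gave 0.0503 and 0.0525.

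The other 5 genes did not pass between both mutants. Sce was at 0.48 ± 0.18 (limma adjusted p = 0.072) although its arrays did not overlap, and it passed under 5 of 29 alternatives, with an adjusted p of 0.0195 when the wild-type arrays were left out of the fit. esc was at 0.46 ± 0.16 (limma adjusted p = 0.051) and passed under 9 of 29, also among them the fit without wild type (0.043). Scm was at 0.14 ± 0.18 (limma adjusted p = 0.64), Su(z)12 at 0.13 ± 0.22 (0.72) and Pc at 0.01 ± 0.29 (0.99). These misses do not show equal levels, since with standard errors of 0.16 to 0.29 differences well above the standard error went uncalled, as the 0.48 of Sce and the 0.46 of esc.

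In all, 2 of the 7 genes were called higher in Os+bgcn and none lower, where 20.5% of probe sets passed (11.6% higher and 8.91% lower). The arrays of 3 were apart, all higher, where 13.1% of probe sets were apart (7.81% higher and 5.33% lower). Psc is in both counts and was tested only because Os+bgcn was high, so they are a description. The median of the 7 was 0.39 and that of all probe sets 0.03, or 0.70 and 0.34 with ribosomal centring, where 78.7% of calls were higher in place of 56.6%. The number called went from 1 to 4 over the alternatives.

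**Figure D3:**
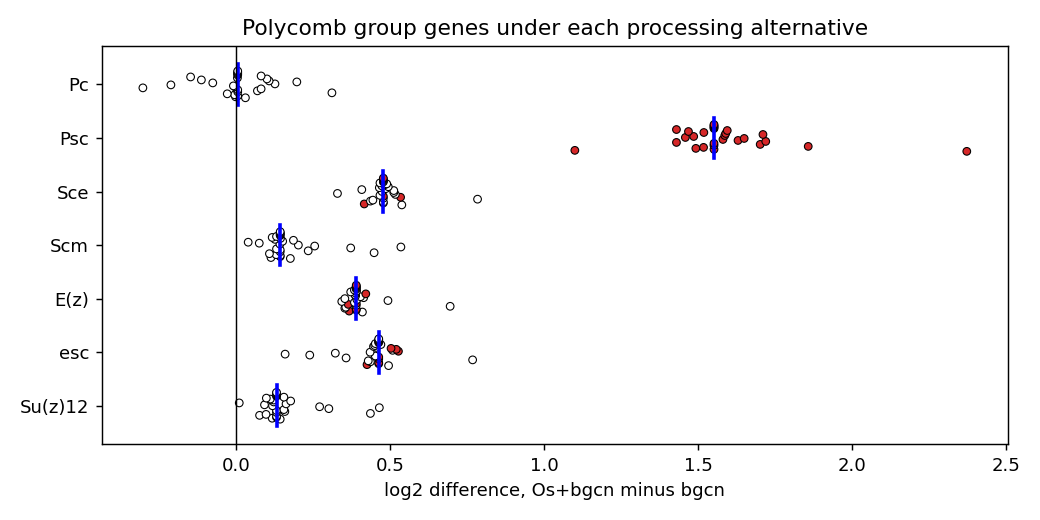
Log2 difference between Os+bgcn and bgcn of each Polycomb group gene under each processing alternative (points, filled where the adjusted p was under 0.05) and as reported (bar). Psc lies at 1.10 to 2.37 and is filled throughout, Pc scatters on both sides of 0 from -0.30 to 0.31, and E(z), esc and Sce mix filled and open points.

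Marker genes of cell types differed in the same comparisons. The summed signal of 11 of 13 early germline markers measured lay between 429.5 and 655.8 in wild type, between 4849 and 6073 in bgcn and between 8647 and 10990 in Os+bgcn. The summed signal of 18 of 27 replication and mitosis genes was 969.4 to 1134, 5672 to 7091 and 9242 to 10870 in the same order. For 9 of 11 cyst lineage markers it was 326.0 to 405.0, 979.6 to 1266 and 3469 to 4926. By these sums, which bright genes weigh on most, the 3 groups do not overlap in any of these lists, in the order seen for E(z) and Sce. By each array's median log2 value the early germline list did overlap between the mutants (bgcn: 8.23 to 8.58, Os+bgcn: 8.54 to 9.07). The cyst lineage list and the replication and mitosis list kept all 3 groups apart by that median, in the same order. Single markers differed from their sums: between the mutants stil of the germline list and eya of the cyst list fell, at -0.61 (limma adjusted p = 0.047) and -0.995 (0.0012), and tj, a cyst lineage factor, read 19.4 in bgcn against 26.2 in wild type (-0.24, 0.57). Between the mutants 6 of 11 germline markers tested rose and 1 fell, 7 of 8 cyst markers rose and 1 fell, and 10 of 18 replication and mitosis genes rose. Over all probe sets 11.6% rose and 8.91% fell. The cyst marker tj was above the filter level on Os+bgcn arrays alone, so a high value there was required for its test. Single markers here and below were chosen after their values were seen. Between the mutants 5 of 7 hub markers went from 149.2 to 260.4 in bgcn to 720.8 to 1139 in Os+bgcn, with upd1, the gene named in the genotype, going from 9.6 to 396 and CadN, a cadherin gene, from 28.3 to 233 in mean signal. Of the 4 hub markers tested 3 rose and 1 fell, namely hh at -0.63 ± 0.20 (limma adjusted p = 0.030). Among those that rose, upd1 was likewise above the filter level on Os+bgcn arrays alone. The part of all these markers in the Polycomb differences was not tested.

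Among markers of other tissues, 16 of 16 accessory gland, 8 of 13 muscle sheath and 6 of 9 hemocyte genes tested fell between bgcn and Os+bgcn. None of them rose. Over all probe sets 8.91% fell and 11.6% rose. The sum over 16 of 20 accessory gland markers was 4942 to 27530 in bgcn, 569.8 to 3929 in Os+bgcn and 8138 to 32270 in wild type. For 11 hemocyte markers it was 3420 to 4526, 2461 to 3162 and 1617 to 2071, and for 13 of 17 muscle sheath markers 5160 to 7669, 3404 to 5175 and 3453 to 3937. No marker was listed at 0 on any array. With the accessory gland level as a covariate Psc was at 1.63 between both mutants and passed (limma adjusted p = 0.0199), and E(z) was at 0.49 and did not (0.243). Without bgcn arrays 1 and 2 the count of Polycomb genes called higher was 1, namely Psc.

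Other Polycomb group genes include recruiters and partners of both complexes. Of 24 listed, 19 were measured and tested, 7 of them above the filter level on mutant arrays alone. In bgcn against wild type 15 of 19 rose, 1 fell and 3 did not pass, where 47.2% of all probe sets rose and 22.6% fell. Their median was 1.36, and with ribosomal centring 2 were higher and 10 lower. sxc, the O-GlcNAc transferase gene, rose by 3.18 ± 0.16 (limma adjusted p = 4.7e-13), to a signal of 668 ± 150 from 56.4 ± 12.7. Sfmbt, a subunit of the DNA-binding Pho complex, rose by 3.05 ± 0.23 (2.8e-10), and phol, a paralog of the DNA-binding factor pho, by 2.29 ± 0.20 (4.0e-09). Of these, phol was above the filter level on mutant arrays alone, so a high value there was required for its test. The gene that fell was l(3)73Ah, a homologue of the Psc type of RING finger protein, at -0.44 ± 0.18 (adjusted p = 0.037), named after its value was seen. In Os+bgcn against wild type 17 rose and 2 did not pass, where 47.3% of all probe sets rose, with a median of 1.91, and 5 were higher and 4 lower with ribosomal centring.

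Between both mutants 9 of these 19 rose and none fell, where 11.6% of all probe sets rose and 8.91% fell, with a median of 0.52, and 5 were higher with ribosomal centring. corto, a chromodomain protein gene, rose by 1.01 ± 0.20 (limma adjusted p = 0.0015), and Caf1-55, the histone-binding subunit that PRC2 shares with other complexes, by 0.96 ± 0.18 (0.00055). jing, which encodes a PRC2 cofactor, differed by 0.94 ± 0.22 (0.0051) on its brighter probe set and by -0.31 on the second, which did not pass as higher. Among direct partners of the 3 PRC2 genes, Pcl differed by 0.60 ± 0.15 (adjusted p = 0.0064), Jarid2 by 0.34 ± 0.21 (0.26) and escl, the paralog of esc, by 0.30 ± 0.19 (0.30). In wild type escl read 100 ± 19.0 (SD, n = 5). These PRC2 partners were chosen after their values were seen.

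The trithorax group, which counteracts Polycomb silencing, had medians of the same sign as the Polycomb genes on the deposited scaling. Of 23 listed genes 18 were tested, 5 of them above the filter level on mutant arrays alone. In bgcn against wild type 13 rose and 1 fell, beside 47.2% and 22.6% of all probe sets, with a median of 1.33, while 1 was higher and 10 lower with ribosomal centring. In Os+bgcn against wild type 17 rose and 1 fell, beside 47.3% and 24.2%, with a median of 1.70 (4 and 5 with ribosomal centring). Snr1, osa and the demethylase gene Kdm5 rose most in both, with Snr1, a subunit of the Brahma remodelling complex, at 2.98 ± 0.17 in bgcn (limma adjusted p = 4.9e-12) and 3.71 ± 0.17 in Os+bgcn (6.8e-14). Snr1 and osa were above the filter level on mutant arrays alone, so a high value there was required for their test, while Kdm5 was also above it on 4 wild-type arrays. tna fell in both comparisons with wild type, by 2.33 and 1.92 on the log2 scale, and was chosen after its values were seen. Between both mutants 7 rose and none fell, beside 11.6% and 8.91%, with a median of 0.43 (3 and none with ribosomal centring), led by ash2 at 1.25 ± 0.25 (0.0013) and trx, the histone methyltransferase that names the group, at 0.77 ± 0.17 (0.0028).

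Homeotic and other developmental genes that are known Polycomb targets in embryos were mostly too dim to test. Of 30 listed, 24 were measured and 10 tested, and 12 to 14 of the 24 lay at or under the filter level on every array of a group. The Hox genes Scr, Dfd and pb, and en, named after their values were seen, were among those not tested, with Scr at 5.92 ± 6.02 in wild type, 7.90 ± 6.99 in bgcn and 5.82 ± 1.24 in Os+bgcn (SD). In bgcn against wild type 3 of the 10 rose, 2 fell and 5 did not pass, where 47.2% of all probe sets rose and 22.6% fell. Their median of 0.45 is close to the 0.46 of all probe sets, and all 10 were lower with ribosomal centring. eya, a phosphatase and transcription cofactor of cyst cells, rose by 1.43 ± 0.21 (limma adjusted p = 3.9e-06) and dac by 0.78 ± 0.26 (0.013). The homeobox gene Dr differed by 1.08 ± 0.25 (0.00069), but it was above the filter level on the 5 bgcn arrays and no other, so a high value in bgcn was required for its test.

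In Os+bgcn against wild type 1 of the 10 rose and 2 fell, where 47.3% of all probe sets rose and 24.2% fell, with a median of 0.08 that was -0.05 with quantile normalization, -0.20 with median centring and -1.88 with ribosomal centring, where 9 were lower. Between both mutants 1 rose and 3 fell, and their median was -0.22, or 0.09 under ribosomal centring, where 1 was higher and none lower. Over all probe sets 11.6% rose and 8.91% fell. Among those that fell, eya and hh also stand in the cyst lineage and hub lists above, so the same falls are counted there. ci, the transcription factor of the hedgehog pathway, rose by 1.46 ± 0.22 (limma adjusted p = 9.7e-05). Dr and eya changed by -1.32 ± 0.24 (0.00049) and -0.995 ± 0.20 (0.0012), neither of which passed with ribosomal centring. Of these, Dr entered the test through bgcn alone, as above, and ci was above the filter level on 1 bgcn array, all 6 Os+bgcn arrays and no wild-type array. eya, above it on all 16 arrays, did not pass between Os+bgcn and wild type (0.43 ± 0.20, adjusted p = 0.058).

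Of the testis TAFs, spermatocyte regulators that act against Polycomb, and the meiotic arrest complex tMAC, 12 of 13 listed genes were measured and 8 tested. In bgcn against wild type 5 fell, none rose and 3 did not pass, with a median of -1.09, where 22.6% of all probe sets fell, and all 8 were lower with ribosomal centring. topi, a zinc finger subunit of tMAC, went from 193 ± 32.4 (SD) to 5.66 ± 1.31, a change of -3.10 ± 0.18 (limma adjusted p = 4.5e-12). The testis TAF genes can and Taf12L changed by -1.76 ± 0.19 (8.1e-08) and -1.66 ± 0.19 (1.9e-07). topi and can were above the filter level on wild-type arrays alone, so entering the test already required the higher wild-type value, while Taf12L was above it on all 16 arrays. In Os+bgcn against wild type 5 fell and 1 rose, with a median of -0.98, where 24.2% of all probe sets fell. The gene that rose, mip40 at 0.48 ± 0.17 (adjusted p = 0.015), did not with median or ribosomal centring and was chosen after its value was seen. The 2 that did not pass were mia at -0.11 (adjusted p = 0.59) and tomb at 0.09 (0.82). Of the genes not tested, achi read 36.0 ± 21.9 (SD) in Os+bgcn against 11.2 ± 3.91 in wild type. The others, sa, comr and wuc, went the other way, with means of 6.37, 4.63 and 3.43 in Os+bgcn against 111, 20.7 and 54.4 in wild type. All of these except mia were also chosen after their values were seen.

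Between both mutants mia, a testis TAF gene, rose by 0.87 ± 0.18 (limma adjusted p = 0.0018), from 57.5 ± 18.7 (SD) to 119 ± 22.3, and the other 7 did not pass. The sum over all 12 lay between 1513 and 1772 in wild type, between 675.9 and 877.6 in bgcn and between 833.1 and 1184 in Os+bgcn. Of the terminal differentiation genes downstream, all 25 measured of 28 listed fell in both mutants, with medians of -6.31 in bgcn and -6.74 in Os+bgcn, where 22.6% and 24.2% of all probe sets fell. Of the 25, 13 were above the filter level on wild-type arrays alone and were tested only because wild type was high, so this count is a description. Mst84Db, which encodes a sperm tail protein, changed by -9.53 ± 0.30 in bgcn.

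**Figure D4:**
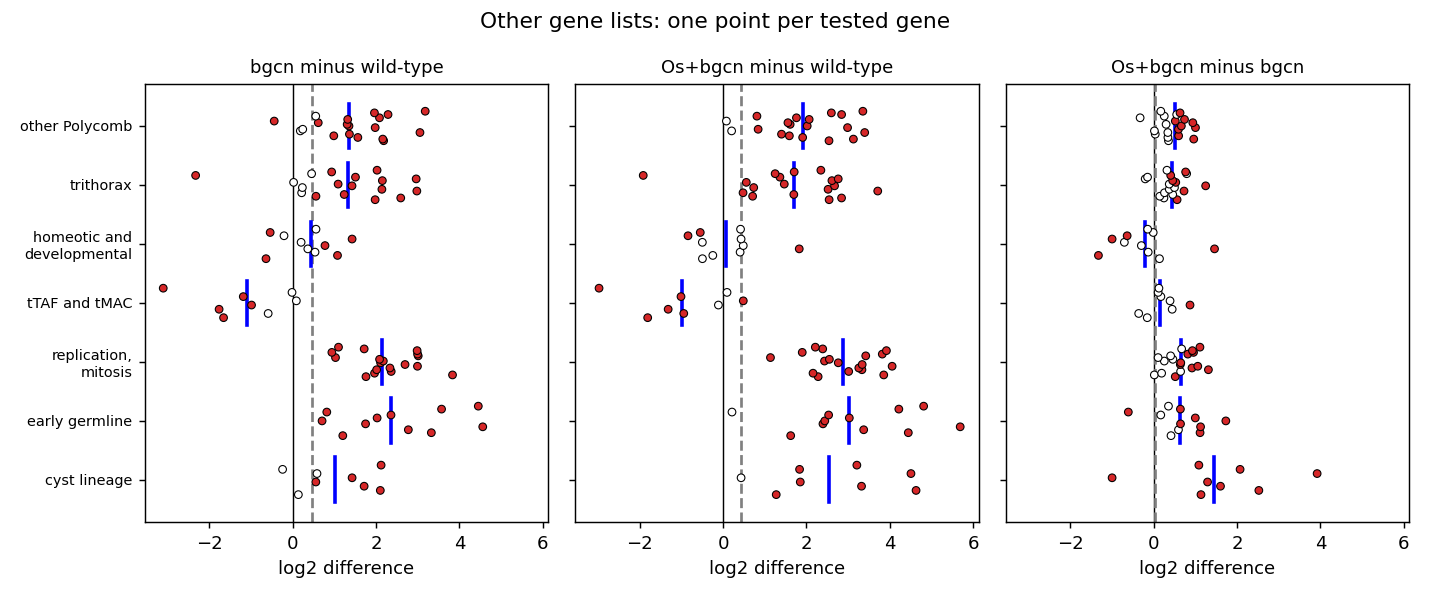
Log2 differences of the tested genes of 7 other lists in the 3 comparisons, with 1 point per gene, filled where the adjusted p was under 0.05, a bar at each list's median and a dashed line at the median of all tested probe sets. Against wild type the medians of the other Polycomb and trithorax lists lie right of that line at 1.33 to 1.91 and that of the tTAF and tMAC list left of 0; with ribosomal centring the Polycomb and trithorax medians turn below 0.

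Across the 16 arrays, which share the contrast of wild type with both mutants, the 7 genes ranged together. On the log2 scale Pearson's r between pairs was 0.39 (Pc and Psc) to 0.97 (E(z) and esc). After each group's mean was taken out, r fell to between -0.64 (Sce and E(z)) and 0.30 (Psc and Scm). Of 8562 other genes, those most like E(z) over the 16 arrays were CG1074, CG4570, gcl, CG4455 and Ibf1, at r = 0.985 to 0.989. Those most like Pc were Trmt112, NC2beta, HP4, CG14245 and mRpL30, at r = 0.83 to 0.85.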

How the data were processed

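Each array's deposited values are MAS5 signals, an intensity for every probe set that the authors left on a linear scale, per the submitters' processing notes, with the version not given in the sources used here. A 2% trimmed mean of 148.4 to 149.3 shows that the arrays share a scale. Per the labels' protocols about 5 µg of total RNA was labelled per sample. Platform gene identifiers were matched to the symbols of RefSeq's Release 6 table, and 12443 of 13966 probe sets carry 1 symbol, 327 several and 1196 none. Signals were taken as log2(signal + 18.8), where 18.8 is the 25th percentile of all values; this understates changes of dim genes. A probe set was tested where more than 42.9, the 40th percentile, was read on 5 or more arrays, which left 10422. limma 3.58.1 in R 4.3.3 fitted 1 coefficient per group to all 16 arrays with an intensity trend, and p-values were Benjamini-Hochberg adjusted over the 10422. The procedure was run on simulated data with independent normal noise and few changed probe sets. Against wild type most probe sets were called, so that run does not vouch for the calls here. Tables were made in pandas 2.3.3 under Python 3.11.15, and plots in matplotlib 3.10.9. The members, lists, model and alternatives were chosen with earlier results of these data known. A gene of another list stands for its probe set of highest mean, and the rule took up to 3 passing genes of largest change per list and comparison, of which a selection is printed; genes named outside it are marked. The spelling of 2 list members was adapted to the table afterwards. Alternatives were other pseudocounts, filters, scalings, error models and sets of arrays.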

Additional observations from a re-analysis of the deposited data

How the results depend on the processing

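The number of probe sets called stayed within 1.5 times of the reported 7277 (bgcn against wild type), 7446 (Os+bgcn against wild type) and 2141 (between both mutants) under all alternatives except, between both mutants, the accessory gland covariate (530) and ribosomal centring (1274). Leaving out each array in turn gave 7056 to 7318, 7258 to 7569 and 1700 to 2130. With ribosomal centring 5 of the 7 Polycomb genes were called lower than wild type in bgcn and 1 in Os+bgcn. The number of the 7 called higher, 6 and 7 against wild type, was 1 in bgcn and 2 in Os+bgcn with ribosomal centring, and 6 and 7 whichever single array was left out. Between both mutants it was 2, and it was 1 with a pseudocount of 1, no filter, quantile normalization, median centring, ribosomal centring, the accessory gland covariate, the replicate block or without bgcn arrays 1 and 2. It was 4 with a pseudocount of 42.9 or with the wild-type arrays left out of the fit, and 1 to 3 without single arrays. Replicate numbers did not pair the arrays, since deviations from the group means correlated at -0.107 to 0.201 for equal numbers and -0.196 to 0.212 for different ones. The replicate block, in which Os+bgcn array 6 has no partner, gave E(z) 0.38 (limma adjusted p = 0.0876) and 1749 calls between both mutants. It changed no other member's call. Of 603 member values under the alternatives 543 kept direction and call, 26 lost the call, 15 gained one and 19 turned direction. With ribosomal centring against wild type the turned values were, in bgcn, Pc -1.33, Psc -1.83, Sce -1.14, Scm -0.81 and E(z) -0.81, and in Os+bgcn Pc -1.02, Sce -0.36, Scm -0.36 and E(z) -0.12, which the shift of all probe sets by that centring brings about. The rest are Pc between both mutants, never called, at -0.004 with the covariate, -0.029 with median centring, -0.002 with a pseudocount of 42.9, -0.005 with quantile normalization, -0.30 without bgcn arrays 1 and 2, and -0.21 to 0.20 without single arrays. The stricter filter, above 98.6, kept 5 of the 7 and left out Pc and Psc. Signals of Pc, Psc, Scm, esc and Su(z)12 at or under 42.9 in wild type limit how far their fold changes can be read.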
